A study of Mus musculus with 6 samples.

Results

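Immune cells of the unloaded soleus were set against those of the ambulatory soleus in young mice. The comparison rested on 2 single-cell libraries, 1 from young mice after hindlimb unloading (young HU) and 1 from young ambulatory controls (young control). Its members were all barcodes with at least 200 detected genes and at most 10% of their unique molecular identifiers (UMIs, 1 per captured transcript) from mitochondrially encoded genes. Under this rule 1518 of 2126 barcodes were kept in young HU and 1605 of 1675 in young control, which together made 3123 of the 12520 kept barcodes in the 6 libraries of the study.

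The mice were male C57BL/6 animals. The young HU group was 4 to 5 months old and was unloaded for 14 days, and the young control group had the same age and stayed ambulatory. Solei of 8 young HU mice and of 10 young control mice were pooled before dissociation, sorting of CD45+ DAPI- cells and droplet capture. The study's methods state that HU mice were fasted before they were killed and do not state it for controls. Old mice of 20 to 22 months had the same 2 groups, with 10 mice pooled for old HU and 20 for old control, and young mice were also sampled after 4 days of reloading. These 3 libraries are given as values beside the young pair.

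Each group was 1 pooled library, so there was no replicate and no test. Ratios and shares are given with 95% intervals that cover counting error only, since cells of 1 pool are not replicates of a treatment. By the flow cell identifier in the labels, young control was sequenced together with old control, whereas young HU was sequenced on another flow cell together with old HU and young reload, so the run and the treatment cannot be told apart. Young reload carries another library number than young HU, so the shared flow cell covers sequencing and does not show that cells were sorted or libraries made together.

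Unloading removes weight bearing from the hindlimb, and the soleus, a slow postural muscle, atrophies. Macrophages are the most common leukocytes of resting muscle. Resident macrophages, known by genes such as Lyve1, Folr2 and Cd163, clear debris and handle iron, whereas cells recently derived from blood monocytes tend to make more inflammatory cytokines and chemokines. Group 2 innate lymphoid cells are tissue lymphocytes that secrete interleukin-5 and interleukin-13, and neutrophils are short-lived granulocytes that enter from blood.

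The 2 libraries differed in depth and in the cells they held. Young HU had 5782054 UMIs in all and a median of 2557 per kept barcode, and young control had 10605650 and a median of 4548. In young HU 27.5% of all barcodes were over the mitochondrial limit, against 4.12% in young control, and in young reload on the flow cell of young HU 33.3% were. The 608 barcodes left out in young HU had a median of 854.5 UMIs and included 162 macrophage-gated and 338 ungated barcodes. The young HU and young control libraries shared 6 cell barcodes.

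Each kept barcode was assigned to the class with most of its 10 marker genes detected, provided that this class had at least 3 markers and 2 more than any other. This gated 1268 barcodes in young HU and 1287 in young control. A further 83 and 200 were mixed, with 2 classes too close to separate, and 167 and 118 were ungated. Classes are named as gated, since a gate is a rule on transcripts and not a sort.

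Barcodes of stromal cells stood out in young HU. Endothelial-gated barcodes were 302 of 1518 (19.9%, exact 95% interval 17.9 to 22.0) in young HU and 2 of 1605 (0.1246%) in young control. Fibroblast-gated barcodes were 74 (4.87%) in young HU and 3 (0.187%) in young control. Mural-gated barcodes, the contractile cells around vessels, were 49 (3.23%) in young HU and 0 of 1605 in young control, where 3 cells would be 0.187%. These cells should lack the sorted antigen. A UMI of Ptprc, which encodes CD45, was found in 3 of 302 endothelial-gated (0.993%), 0 of 74 fibroblast-gated and 0 of 49 mural-gated barcodes of young HU, at median depths of 1836.5, 3164.5 and 2307 UMIs. The same gene had a UMI in 34.0% of 618 macrophage-gated barcodes in young HU at a median of 3267 UMIs, and in 71.7% of 573 in young control at a median of 7251 UMIs. Stromal barcodes were also more frequent in the old unloaded library, with 171 endothelial-gated barcodes (9.05%) in old HU and 8 (0.304%) in old control. Young reload, on the same flow cell as young HU, had 9 endothelial-gated barcodes of 2451 (0.367%). Because stromal barcodes dilute every leukocyte share, shares below are of gated leukocytes, 829 in young HU and 1282 in young control.

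Macrophage-gated cells made up most of the unloaded leukocytes. They were 618 of 829 (74.5%, 71.4 to 77.5) in young HU and 573 of 1282 (44.7%, 42.0 to 47.5) in young control, a difference of 29.9 percentage points (25.7 to 33.8). Of these, 35 in young HU and 11 in young control had the smallest number of markers that the gate accepts. In old mice the shares were 53.8% in old HU and 22.0% in old control, 31.8 points apart (28.4 to 35.1).

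The lymphoid classes took smaller shares in the young HU library. Natural killer (NK) cells were nearly missing, with 1 of 829 (0.121%, up to 0.670%) in young HU and 84 of 1282 (6.55%) in young control. Group 2 innate lymphoid cell-gated barcodes were 47 (5.67%) in young HU and 177 (13.8%) in young control, a difference of -8.14 points (-10.6 to -5.61). T cell-gated barcodes were 25 (3.02%) in young HU and 89 (6.94%) in young control, and B cell-gated barcodes 8 (0.965%) in young HU and 32 (2.50%) in young control. Thinning leaves out cells with fewer than 1000 UMIs and draws 1000 UMIs from each other cell. In thinned cells the T cell difference was -0.987 points, with an interval that included 0 (-2.38 to 0.554). With classes taken from clusters the difference of group 2 innate lymphoid cells was -3.85 points. The lymphoid classes together held 9.77% of gated leukocytes in young HU and 29.8% in young control. Old mice showed the same order, with NK cells at 1.33% in old HU and 7.14% in old control and T cells at 8.71% in old HU and 24.1% in old control.

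The make-up of the T cell gate also differed. Any of Trdc, Tcrg-C1 or Trdv4, constant and variable segments of the gamma-delta receptor, was detected in 12 of 25 T cells (48.0%, 27.8 to 68.7) in young HU and in 10 of 89 (11.2%, 5.52 to 19.7) in young control. Cd8a or Cd8b1, which mark cytotoxic T cells, was detected in 2 of 25 (8%, 0.984 to 26.0) in young HU and in 43 of 89 (48.3%, 37.6 to 59.2) in young control. In macrophage-gated cells, which should lack them, the gamma-delta genes were found in 0.162% in young HU and 0.349% in young control, and the Cd8 genes in 0 of 618 in young HU and 1.92% in young control. Cd8a is also 1 of the 10 markers of the T cell gate. Median depths of the T cells were 2401 UMIs in young HU and 4177 in young control.

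Neutrophil-gated cells were 93 of 829 (11.2%, 9.15 to 13.6) in young HU and 220 of 1282 (17.2%, 15.1 to 19.3) in young control, a difference of -5.94 points (-8.87 to -2.89) that was -11.03 points in thinned cells. In old mice neutrophil shares were 15.8% in old HU and 15.9% in old control, with an interval of the difference from -2.599 to 2.644 points. Monocyte-gated cells, the blood precursors of recruited macrophages, were 7 (0.844%) in young HU and 56 (4.37%) in young control. Dendritic cell-gated barcodes were 13 (1.57%) in young HU and 37 (2.89%) in young control, with an interval of the difference that reached 0.0304 points above 0. Mast cells were 17 (2.05%) in young HU and 13 (1.01%) in young control, and that interval also included 0. The bar chart of class shares sets these values side by side.

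**Figure D1:**
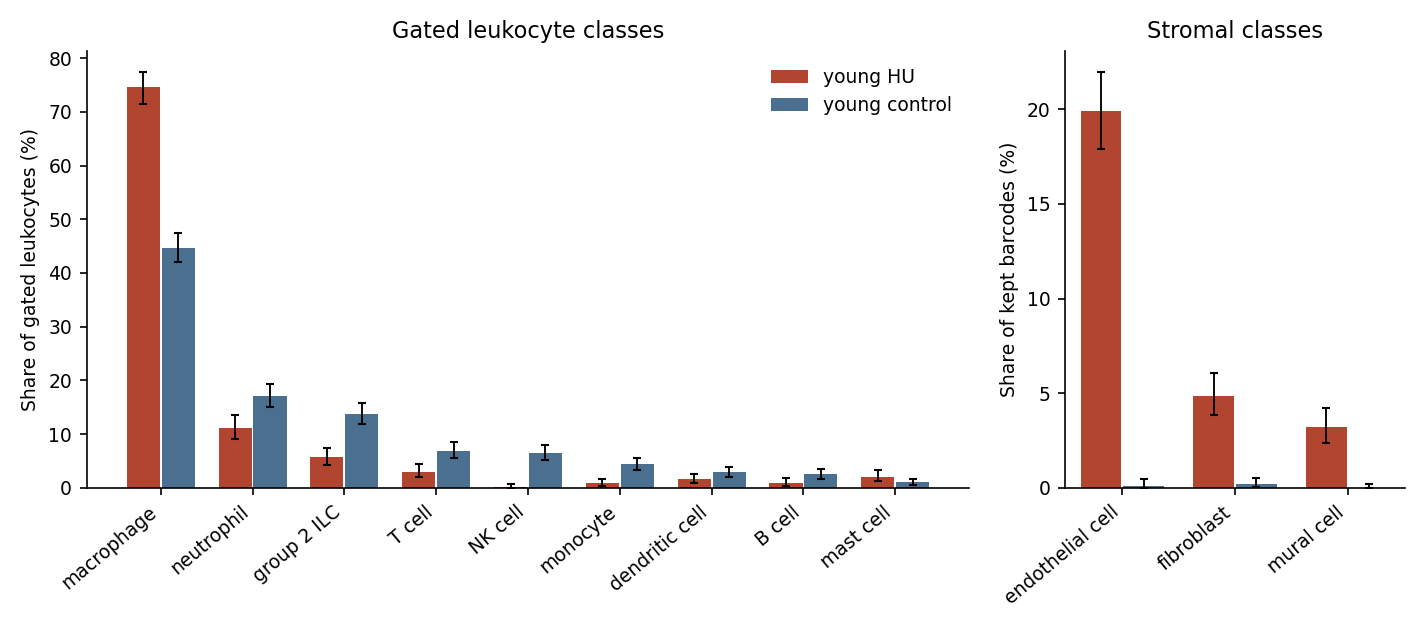
Shares of gated leukocytes (left, %) and of all kept barcodes (right, %) in young HU (red, left bar of each pair) and young control (blue), 1 library each, with exact 95% binomial intervals. Macrophages take 74.5% of gated leukocytes in young HU and 44.7% in young control, and the stromal classes are present almost only in young HU.

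Joint clustering of both libraries was run without correction for library. It placed the macrophage-gated cells of the 2 libraries largely in different clusters, so values within the class may compare partly different cells. The part of run and depth in this separation was not tested. Of 618 macrophage-gated cells in young HU, 253 (40.9%) were in cluster 6, led by the muscle fibre genes Ckm, Acta1, Tnnc2, Tnnt3 and Mylpf and also holding Cd209f and Fcna among its 10 leading genes, against 12 of 573 (2.09%) in young control. Cluster 11, led by Ctsk, Acp5, Mmp9 and haemoglobin genes, held 104 (16.8%) in young HU and 15 (2.62%) in young control. Over all macrophage-gated cells Ctsk had 1 UMI in young HU and 37 in young control, so it does not describe the young HU cells. Acp5 had 51 UMIs in young HU and 163 in young control, and the haemoglobin list summed to 9.91 CPM in young HU and 11.8 CPM in young control. Cluster 3, led by Ccl17, Flrt3, Mmp19, Gpnmb and Cxcl3, held 2 (0.324%) in young HU and 166 (29.0%) in young control. Cluster 9, led by Cxcl1, Gdf15 and Tnf, held 33 (5.34%) in young HU and 170 (29.7%) in young control. Cluster 7, with Lyve1, Folr2 and Cbr2 among its leading genes, held 133 (21.5%) in young HU and 138 (24.1%) in young control. Cycling macrophages of cluster 19 were 7 (1.13%) in young HU and 29 (5.06%) in young control.

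To compare like cells, macrophages were also restricted after the data were seen to a resident type, with at least 2 of Mrc1, Folr2, Pf4, Cbr2, Gas6 and F13a1 detected among 1000 UMIs drawn from each cell. These were 418 of 567 (73.7%, 69.9 to 77.3) in young HU and 275 of 566 (48.6%, 44.4 to 52.8) in young control. Cells with exactly 2 of the 6 markers were 73 in young HU and 115 in young control, so the cut ran through a continuous range. It took 70.9% of macrophages with that depth from old HU, 58.5% from old control and 44.4% from young reload.

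Gene levels within a class were summed over its cells and expressed as counts per 1e+06 UMIs of that class (CPM). A gene was called higher or lower when it had at least 20 UMIs in both libraries together, its level differed by at least 2-fold and the 95% counting interval of the ratio excluded 1. A gene with 0 UMIs in a library was set to 3 counts there, which makes its ratio a bound. In macrophages 9742 genes were tested, of which 1290 (13.2%) were called higher in young HU and 1248 (12.8%) lower. With TMM factors in place of class totals the split was 871 higher and 1612 lower, since that scaling moved the median of all genes by -0.19 on the log2 scale. In cells thinned to 1000 UMIs 529 genes were called higher and 661 lower. In resident-type macrophages 12.7% of 8410 genes were called higher and 13.4% lower. In old macrophages 3.14% of 9436 genes were called higher and 6.48% lower. Of 1169 genes called higher in young HU and tested in old mice, 164 (14.03%) were called higher in old HU, which was 58.4% of the 281 old calls tested in young mice, and 8 were called the other way. Of 1174 called lower in young HU, 293 (25.0%) were called lower in old HU, 53.9% of the 544 old calls, and 5 were called the other way.

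Resident macrophage genes were higher in the unloaded library. Of 31 tested members of the resident macrophage list, 27 were called higher and 1 lower, with a median log2 ratio of 1.64 against 0.12 over all tested genes. Pf4, which encodes platelet factor 4, had 12329 UMIs (5313 CPM) in young HU and 8552 (1625 CPM) in young control, a log2 ratio of 1.71 (1.67 to 1.75). Selenop, a secreted selenium carrier, had 11323 UMIs in young HU and 6461 in young control (1.99). The haemoglobin scavenger receptor Cd163 had 1253 UMIs in young HU and 622 in young control (2.19), and the hyaluronan receptor Lyve1 1227 in young HU and 878 in young control (1.66). The mannose receptor Mrc1, with 478 CPM in young HU and 296 CPM in young control, was not called (0.69). The exception called lower was Il21r, a cytokine receptor, with 16 UMIs in young HU and 113 in young control. Among resident-type macrophages 22 of 31 members were called higher, with a median of 1.37. The 6 genes that chose those cells are themselves members of this list, so this count is not independent of the choice. In old mice 6 of 31 members were called higher and the median was 0.29.

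**Figure D2:**
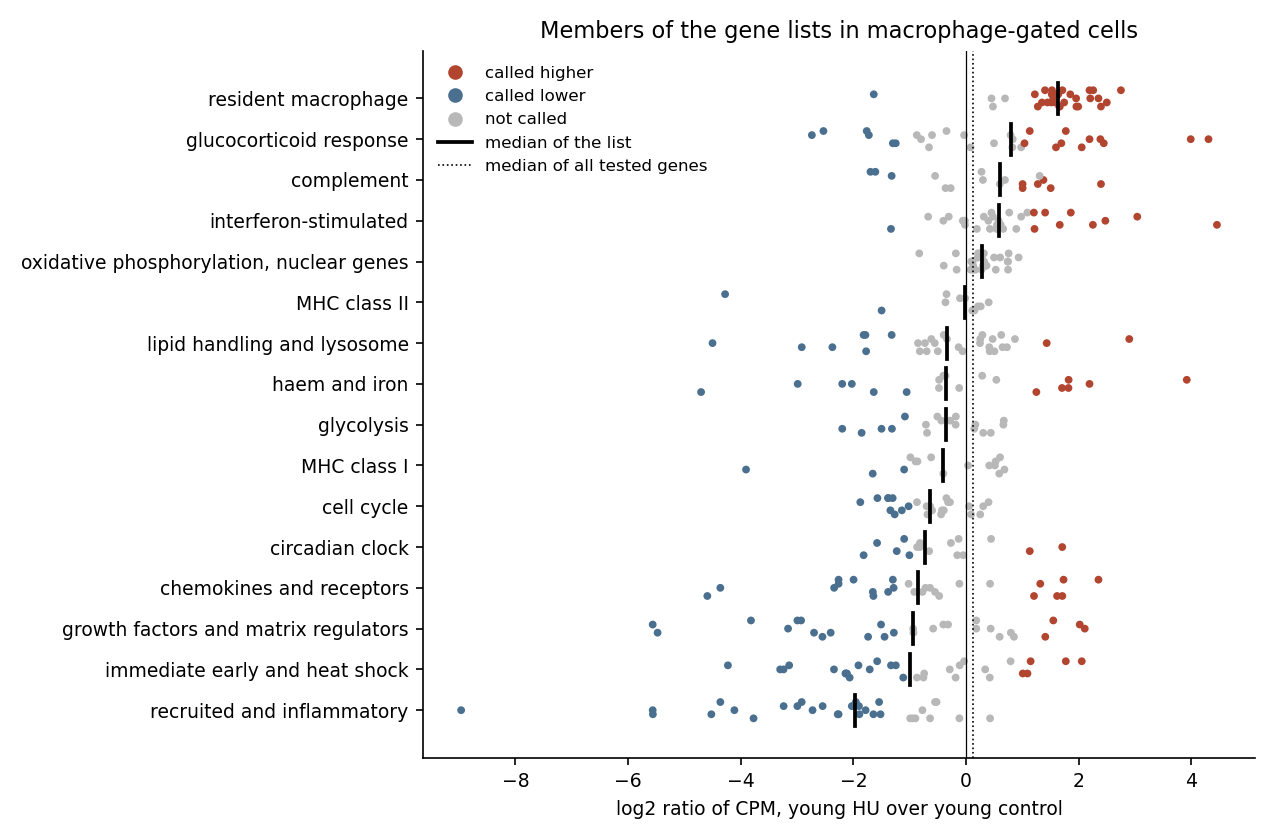
Log2 ratio of CPM, young HU over young control, in macrophage-gated cells for each tested member of 16 gene lists (1 point a gene, coloured by call, black bar at the list median, dotted line at the median of all tested genes, 0.12). The resident macrophage list lies to the right, with a median of 1.64, and the recruited and inflammatory list to the left, with a median of -1.98.

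Among the 12 largest ratios upward, Ddit4, which encodes the mTORC1 inhibitor REDD1, had 845 UMIs (364 CPM) in young HU and 97 (18.4 CPM) in young control, a log2 ratio of 4.30 (4.00 to 4.62). Ms4a4a, a membrane protein of alternatively activated macrophages, had 2565 UMIs (1105 CPM) in young HU and 412 (78.3 CPM) in young control (3.82, 3.67 to 3.97). After drawing 1000 UMIs from each cell, Ms4a4a was detected in 56.6% of 567 macrophages in young HU and in 8.83% of 566 in young control, and in 0 of 79 lymphoid-gated cells in young HU and 0 of 359 in young control. The lymphoid cells had median depths of 2401 UMIs in young HU and 3605 in young control.

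Fcna, a secreted lectin of the complement pathway, followed with 1032 UMIs in young HU and 348 in young control (2.75), and the sulfotransferase Sult1a1 with 676 in young HU and 213 in young control (2.85). March1, a ubiquitin ligase that removes MHC class II from the surface, had 160 UMIs in young HU and 51 in young control (2.83). The alpha-arrestin Arrdc2 (2.83), the kinase anchor Akap7 (2.71), Selenbp1 (2.67), the scaffold Slc9a3r2 (2.64), Fam58b (2.6) and Cd300ld3 (2.58) completed the set together with the interferon-induced GTPase Ifi47 (3.04). Of these 12 genes 11 had a positive log2 ratio in old mice too, led by Akap7 (2.57) and Ddit4 (2.46), while Ifi47 was at -0.84.

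Among the 12 largest ratios downward, Cxcl3, a neutrophil-attracting chemokine, had 1 UMI in young HU and 1133 (215 CPM) in young control, a log2 ratio of -8.96 (-14.27 to -6.48). Thbs1, thrombospondin-1, had 12 UMIs (5.17 CPM) in young HU and 1287 (245 CPM) in young control (-5.56, -6.52 to -4.75). Slc7a11, the cystine importer for glutathione synthesis, had 16 UMIs in young HU and 946 in young control (-4.70), and the adhesion protein Flrt3 13 in young HU and 716 in young control (-4.60). Each of Acod1, which makes itaconate, Gprc5a, Rhof, the amplifying receptor Trem1 and the angiogenic factor Vegfa had 1 UMI in young HU, against 143, 137, 115, 107 and 101 UMIs in young control. Pdpn (podoplanin), Tgm2 (a transglutaminase) and Slc39a14 (a zinc and iron importer) had 2, 3 and 3 UMIs in young HU, against 216, 316 and 165 in young control. In old mice the 12 ratios were nearer to 0, and Vegfa (0.19) and Flrt3 (0.64) were above 0. The plot of the 24 genes shows both ages.

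**Figure D3:**
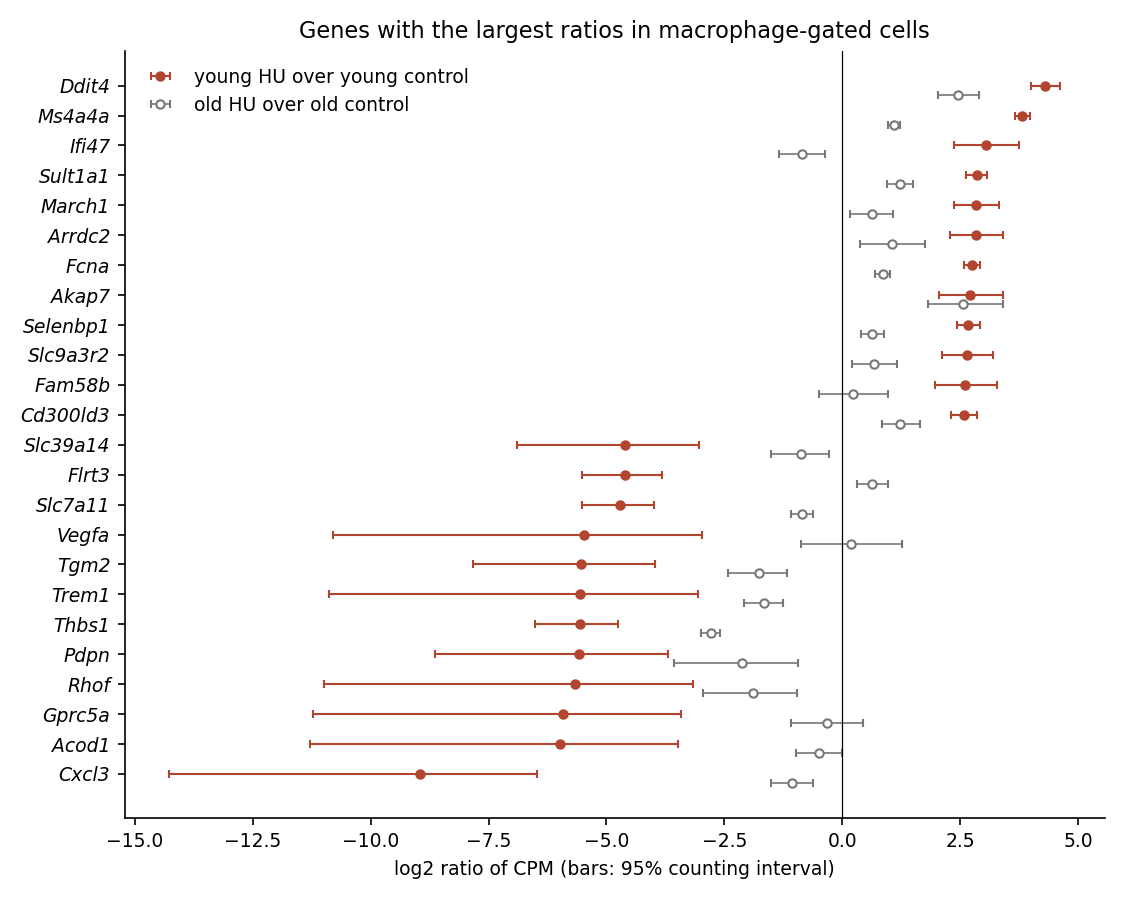
Log2 ratio of CPM with 95% counting intervals for the 12 largest ratios each way in macrophage-gated cells, for young HU over young control (filled) and old HU over old control (open). Ddit4 lies at 4.30 in young and 2.46 in old mice, and Cxcl3 at -8.96 in young and -1.06 in old mice.

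Inflammatory genes were lower in unloaded young macrophages. Of 32 tested members of the recruited and inflammatory list, 23 were called lower and 0 higher, with a median log2 ratio of -1.98. The neutrophil-attracting chemokine Cxcl2 had 3175 UMIs (1368 CPM) in young HU and 34556 (6565 CPM) in young control (-2.26, -2.32 to -2.21). After drawing 1000 UMIs per cell it was found in 23.3% of macrophages in young HU and 62.2% in young control, against 10.1% of lymphoid-gated cells in young HU and 13.9% in young control. The pyrogenic cytokine Il1b had 147 UMIs (63.3 CPM) in young HU and 5769 (1096 CPM) in young control (-4.11), Tnf 317 in young HU and 2096 in young control (-1.54), and the chemokine Cxcl1 34 in young HU and 1586 in young control (-4.36).

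Other members differed less. Nfkbia, the inhibitor of NF-kB that NF-kB itself induces, had 743 CPM in young HU and 1478 CPM in young control (-0.99), just short of the call. The early response gene Ier3 was at -0.52 and the monocyte chemokine Ccl2 at -0.64, while the monocyte receptor Ccr2 was at 0.43. Among resident-type macrophages 26 of 32 members were called lower, with a median of -2.48. In old mice 5 members were called lower and 1 higher, with a median of 0.02, and the difference between the young and old pairs was not tested. Cxcl2 was at 6844 CPM in macrophages of old HU and at 4975 CPM in those of old control. Young reload, on the flow cell of young HU, had 9814 CPM of Cxcl2, 2648 CPM of Il1b and 640 CPM of Cxcl1, in each case more than young control.

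Promoter sequences of members with an NF-kB-like motif are shown because 3 of them, Cxcl1, Cxcl2 and Cxcl3, are among the chemokine genes with large ratios in macrophages. The motif was searched as GGGNNTTTCC on both strands, from 250 bases before to 50 bases after each start, and was chosen after the promoters had been looked at. It was found in 7 of 24 members of the recruited and inflammatory list with a promoter entry (29.2%), against 512 of 27025 genes (1.89%), and in 1 of 23 resident macrophage members and 0 of 27 glucocorticoid response members. The stretches below run 5′ to 3′ along the gene, from RefSeq on GRCm38.p6, with the motif in capitals.
Cxcl1: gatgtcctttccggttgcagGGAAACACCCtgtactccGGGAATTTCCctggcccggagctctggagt
Cxcl2: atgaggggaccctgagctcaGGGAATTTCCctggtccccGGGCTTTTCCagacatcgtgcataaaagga
Cxcl3: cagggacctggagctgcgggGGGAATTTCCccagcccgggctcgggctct
Nfkbia: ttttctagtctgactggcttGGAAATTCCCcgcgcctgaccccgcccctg
Tnfaip3: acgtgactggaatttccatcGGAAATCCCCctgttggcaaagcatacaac
They cover chr5:90891136-90891203 (plus strand) for Cxcl1, chr5:90903782-90903850 (plus) for Cxcl2, chr5:90786008-90786057 (plus) for Cxcl3, chr12:55492647-55492696 (minus) for Nfkbia and chr10:19015393-19015442 (minus) for Tnfaip3. The motif began 89 and 71 bases before the start of Cxcl1, 97 and 78 bases before that of Cxcl2 and 73 bases before that of Cxcl3. Genes with the motif ranged widely in macrophages, with log2 ratios of -8.96 for Cxcl3, -0.99 for Nfkbia, -0.95 for Tnfaip3 and -0.55 for Ccl9. A gene was counted when any of its promoter entries held the motif. Tnfaip3 has another entry, at chr10:19011914-19012213 (minus), without a match. A match is a description of the letters and not of binding.

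Target genes of the glucocorticoid receptor were more often higher than lower in unloaded macrophages, and many were not called. Glucocorticoids are adrenal hormones whose receptor enters the nucleus and induces feedback and metabolic genes. Of 29 tested members of the glucocorticoid response list, 11 were called higher and 6 lower, with a median of 0.79. Tsc22d3, which encodes the anti-inflammatory mediator GILZ, had 2280 UMIs (983 CPM) in young HU and 1515 (288 CPM) in young control (1.77, 1.68 to 1.87). Fkbp5, a chaperone that restrains the receptor, had 280 UMIs (121 CPM) in young HU and 153 (29.1 CPM) in young control (2.05). Txnip, an inhibitor of thioredoxin and glucose uptake, had 680 CPM in young HU and 125 CPM in young control (2.44), and the transcription factor Klf9 166 CPM in young HU and 51.5 CPM in young control (1.69). Hif3a had 21 UMIs in young HU and 0 in young control.

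The members called lower included Il1r2, a decoy receptor for interleukin-1, with 16 UMIs in young HU and 242 in young control (-2.74), and the cell cycle inhibitor Cdkn1a, with 489 in young HU and 3668 in young control (-1.73). The metallothionein Mt1, the most abundant member, was not called (-0.80). Per1, which is also a clock gene, was higher (1.13), whereas of 16 tested circadian clock genes 2 were called higher and 5 lower, with a median of -0.74. In old mice 5 of 29 glucocorticoid response members were called higher and 2 lower, with Fkbp5 at 1.17, Tsc22d3 at 0.90 and Klf9 at 1.62. Young reload macrophages had 22.6 CPM of Ddit4, 57.8 CPM of Txnip, 14.4 CPM of Fkbp5 and 144 CPM of Tsc22d3. Of these only Ddit4 was above young control, and all were below young HU, as the plot of levels by library shows.

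**Figure D4:**
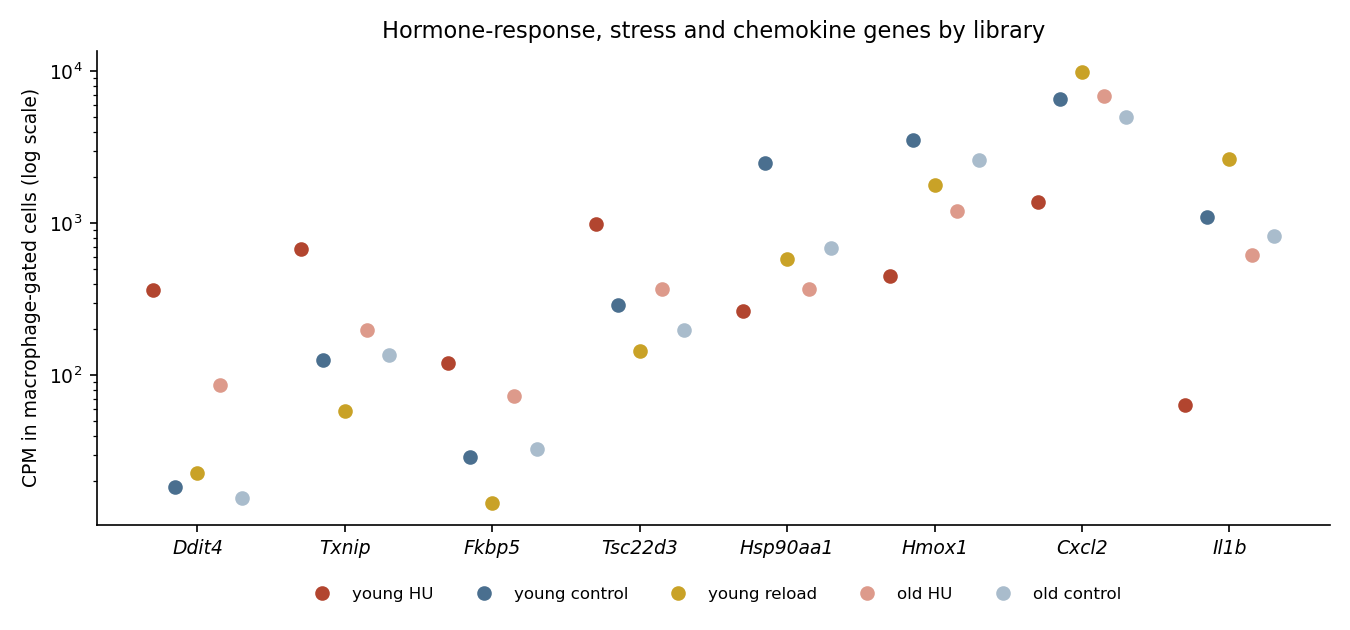
Level in macrophage-gated cells (CPM, log axis) of 8 hormone response, stress and chemokine genes in 5 libraries, 1 point a library. Ddit4 is at 364 CPM in young HU and 18.4 CPM in young control, with young reload at 22.6 CPM, and Il1b is at 63.3 CPM in young HU and 1096 CPM in young control, with young reload at 2648 CPM.

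Heat shock genes, which encode chaperones, and immediate early genes, which encode fast-induced transcription factors, are often induced when tissue is dissociated. All 9 tested heat shock members were called lower, with a median of -1.71. The chaperone Hsp90aa1 had 613 UMIs (264 CPM) in young HU and 13137 (2496 CPM) in young control (-3.24, -3.36 to -3.12), and Hspa1a 4191 UMIs (1806 CPM) in young HU and 23939 (4548 CPM) in young control (-1.33). Hspa1a and Hspa1b are near-identical copies, so their split is uncertain. The 3 Nr4a nuclear receptors were lower too, from Nr4a1 (-2.14) to Nr4a3 (-4.23).

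Of the other 18 immediate early members, 5 were called higher and 3 lower, with a median of -0.07. Fos had 1744 CPM in young HU and 511 CPM in young control (1.77), Ier2 784 CPM in young HU and 189 CPM in young control (2.05), and Jun 1278 CPM in young HU and 600 CPM in young control (1.09). Klf2 was at 1.15 and Egr1 at 1.01, and the call of Egr1 was lost in 7 of 16 alternatives. The most abundant, Junb, was not called (0.34). Old macrophages had 368 CPM of Hsp90aa1 in old HU and 684 CPM in old control, and 1538 CPM of Fos in old HU and 944 CPM in old control.

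Of 19 tested members of the haem and iron list 6 were called higher and 6 lower. The iron exporter ferroportin, Slc40a1, had 80 UMIs in young HU and 12 in young control (3.92, 3.03 to 4.93), and the biliverdin reductase Blvrb 1232 in young HU and 858 in young control (1.70). Hfe (1.82), Blvra (1.25) and Cd163 were also higher. So was Hpgd (1.82), which the list holds although it encodes a prostaglandin-degrading enzyme. Hmox1, haem oxygenase-1, had 1036 UMIs (446 CPM) in young HU and 18653 (3544 CPM) in young control (-2.99), and it was detected in 28.6% of macrophages in young HU and 77.2% in young control after drawing 1000 UMIs, against 0 of 79 lymphoid-gated cells in young HU and 3.62% in young control. The ferritin chains Fth1 (-0.48) and Ftl1 (-0.40), the most abundant members, were not called. Hmox1 and Slc7a11 are targets of the oxidative stress factor NRF2, whose gene Nfe2l2 was lower (-1.64). Outside the lists and chosen after their values were seen, the NRF2 targets Srxn1, with 19 UMIs in young HU and 994 in young control (-4.53), and Txnrd1, with 57 in young HU and 2184 in young control (-4.08), were lower as well. The peroxidase gene Prdx1, looked up with them, had 724 CPM in young HU and 1439 CPM in young control and was not called (-0.99). In resident-type macrophages Prdx1 was at -0.43.

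Chemokines and their receptors split in direction. Of 26 tested chemokines and receptors 6 were called higher and 11 lower. The higher ones were Ccl24, an eosinophil attractant (2.35), Cxcl12 (1.73), Pf4 (1.71), Ccl8 (1.62), Ccl6 (1.32) and Ccl12 (1.21). Ccl24, Pf4 and Ccl8 are also members of the resident macrophage list, so counts of the lists overlap. The same holds for Cd163, Igf1, Vsig4 and C4b, which are named under other lists. Ccr7, which guides cells to lymph nodes, was at -4.59, Ccl5 at -2.34 and Ccl7 at -2.0. Ccr7 is a marker of the dendritic cell gate, so its level here depends in part on the gate. Without gate markers of any class, 6 of 24 members were called higher and 10 lower. In numbers, Ccl24 had 541 CPM in young HU and 106 CPM in young control, and Ccl6 3682 CPM in young HU and 1477 CPM in young control.

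Growth factor and matrix genes were more often lower, with 13 of 28 called lower and 4 higher. Fibronectin, Fn1, had 430 UMIs in young HU and 2776 in young control (-1.51), the stress cytokine Gdf15 89 in young HU and 1537 in young control (-2.93), and amphiregulin, Areg, 49 in young HU and 588 in young control (-2.40). Areg is a marker of the group 2 innate lymphoid cell gate. Without gate markers of any class, 12 of 26 members were called lower and 4 higher. Igf1, a muscle growth factor, was higher, with 207 CPM in young HU and 70.7 CPM in young control (1.55), as were Timp2 (1.41), Pdgfc (2.11) and Sparc (2.02). Tgfbi and Grn, the most abundant with Timp2 and Fn1, were not called (0.85 and 0.80). In old mice Igf1 was at 1.23 and Areg at 1.48.

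Interferon-stimulated genes were called higher in 9 of 31 and lower in 1, with a median of 0.58. Ifit3 had 71 UMIs in young HU and 29 in young control (2.47), Oasl2 72 in young HU and 45 in young control (1.86), and Irf7, which amplifies interferon responses, 86 in young HU and 84 in young control (1.22). The most abundant, Ifitm3 (0.98), Ly6e (0.48) and Bst2 (0.54), were not called, and Rsad2 was lower (-1.33). With cells thinned to 1000 UMIs only 1 member was called. In old mice 0 of 33 were called higher and 4 lower.

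Complement genes outside the gate were called higher in 3 of 14, including Vsig4 (2.40) and C4b (1.27), and lower in 3, C3 (-1.61), C5ar2 (-1.32) and Itgax (-1.70). C1qa, C1qb and C1qc chose the cells and are not read. Of 31 lipid and lysosome genes 2 were called higher and 7 lower. Apoe, which carries lipid out of cells, had 5785 CPM in young HU and 2144 CPM in young control (1.43), while Gpnmb, a membrane protein of lipid-laden cells, had 11 UMIs in young HU and 565 in young control (-4.50) and the fatty acid binding protein Fabp5 91 in young HU and 1559 in young control (-2.92). The proteases and membrane proteins Ctsb (0.73), Psap (0.41) and Lamp1 (0.65) were not called.

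Of 11 MHC class II genes only H2-Oa (-4.28) and H2-Ob (-1.5), which restrain peptide loading, were called, both lower. The invariant chain Cd74 had 29249 CPM in young HU and 26364 CPM in young control (0.15), and H2-Aa was at -0.11. Among 15 MHC class I genes 3 were called lower, led by H2-Q7 (-3.91). None of 31 nuclear genes of oxidative phosphorylation was called, with a range of -0.83 (Cycs) to 0.93 (Ndufv2). Of 18 glycolysis genes 5 were lower, including the glucose transporter Slc2a1 (-2.20), the hexokinase Hk2 (-1.5) and Hif1a (-1.09). Of 25 cell cycle genes 9 were lower and 0 higher, among them Mki67, with 31 UMIs in young HU and 183 in young control (-1.38).

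Muscle fibre transcripts were also higher in macrophages of young HU. Of 18 tested muscle fibre genes 15 were called higher in macrophages of young HU, including Acta1, skeletal alpha-actin, with 120 UMIs in young HU and 25 in young control (3.44), and Ckm, muscle creatine kinase, with 78 in young HU and 10 in young control (4.15). The list summed to 402.5 CPM in young HU and 139 CPM in young control. In neutrophils it summed to 344 CPM in young HU and 65.2 CPM in young control, with 0 members tested. In group 2 innate lymphoid cells it summed to 111 CPM in young HU and 102 CPM in young control, with 1 member tested. Gzmb, granzyme B of cytotoxic lymphocytes, had 0 UMIs in macrophages of young HU and 116 in young control. Its list of lymphocyte activation and effector genes had 12 of 19 tested members lower and 1 higher, but it also holds genes that macrophages express, such as Tnf, Cd44, Ccl5 and Klf2, and is no count of foreign transcripts. The endothelial list summed to 86.6 CPM in macrophages of young HU and 107 CPM in young control, and 8 of its 20 members were at 0 in each. The fibroblast list summed to 30.2 CPM in young HU and 9.69 CPM in young control. In group 2 innate lymphoid cells of young HU the endothelial list was at 8.56 CPM and the fibroblast list at 0. By comparison the endothelial list was at 10646 CPM in endothelial-gated cells of young HU. The part of these transcripts in other macrophage results was not tested, and taking out endothelial and fibroblast RNA left 1337 genes called higher and 1245 lower.

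In neutrophils inflammatory genes were more often higher than lower in young HU. Clustering without correction for library separated the libraries almost wholly. Cluster 0 held 91 of 93 neutrophil-gated cells of young HU, and cluster 21 held 210 of 220 of young control. Of 2587 tested genes, 169 (6.53%) were called higher in young HU and 411 (15.9%) lower, and the median over all genes was -0.37. Of 27 tested recruited and inflammatory genes 13 were called higher and 4 lower, with a median of 1.03. Cxcl2 had 2238 UMIs (17907 CPM) in young HU and 1651 (3588 CPM) in young control (2.32, 2.23 to 2.41). Il1b had 1032 UMIs (8257 CPM) in young HU and 1352 (2938 CPM) in young control (1.49). Nfkbia was at 2.33 and Ccl4 at 1.93, while Thbs1 (-1.38) and Spp1 (-1.17) were lower. With the cell that held most UMIs of each gene left out, 8 members were called higher. In old neutrophils 9 of 29 members were called higher and 7 lower, with a median of 0.54 against -0.26 over all tested genes. The share of all genes called in old neutrophils was not counted, so these 2 counts have no background beside them. The macrophage and neutrophil values come from the same 2 libraries, and the plot of both classes sets them gene by gene.

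**Figure D5:**
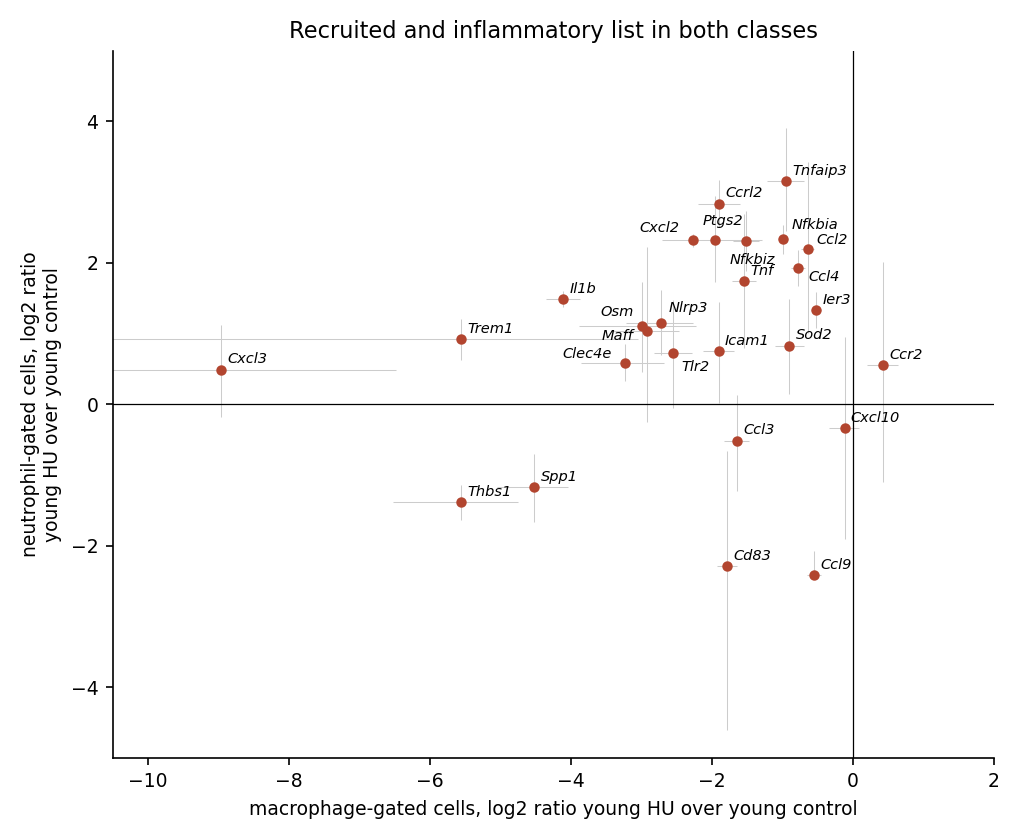
Log2 ratio, young HU over young control, of recruited and inflammatory genes tested in both classes, in macrophage-gated cells (horizontal) and neutrophil-gated cells (vertical), with 95% counting intervals in grey. Genes of the upper left were lower in macrophages and higher in neutrophils, such as Cxcl2 (-2.26 and 2.32) and Il1b (-4.11 and 1.49), while Thbs1 (-5.56 and -1.38) and Spp1 (-4.52 and -1.17) lie in the lower left.

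By size of ratio the neutrophil genes called higher were led by Ngp, a granule protein of immature neutrophils, with 118 UMIs (944 CPM) in young HU and 21 (45.6 CPM) in young control (4.37, 3.69 to 5.12). Those in young HU came from 22 cells, up to 29 UMIs in 1 cell. The growth response factor Egr1 had 93 UMIs in young HU and 28 in young control (3.61), the NF-kB inhibitor Tnfaip3 58 in young HU and 24 in young control (3.15), and the cell cycle inhibitor Cdkn2d 41 in young HU and 17 in young control (3.15). The chemerin-binding receptor Ccrl2 had 231 UMIs in young HU and 119 in young control (2.84). In old neutrophils Ccrl2 was at 3.68 and Egr1 at 2.04, and Ngp at 0.30.

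The largest ratios downward in neutrophils were of Prdx1, a peroxidase (1 UMI in young HU and 249 in young control), the chaperone Hspd1 (1 and 96), Lgals1 (2 and 118), Cd93 (1 and 55) and the respiratory subunit Cox7b (1 and 49). Of the 249 Prdx1 UMIs in young control 86 were in 1 cell and the rest in 18 others. Hspd1 and Lgals1 turned to log2 ratios of 0.64 and 0.28 once cells were thinned to 1000 UMIs, with 1355 genes tested.

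Glucocorticoid response genes were called higher in 7 of 21 tested in neutrophils and lower in 0, including Tsc22d3 (1.75), Ddit4 (2.14), Per1 (1.66), Anxa1 (1.85) and Lcn2 (2.32), of which Lcn2 helps to define the gate. Of 16 immediate early members apart from the Nr4a genes 8 were higher and 0 lower, led by Egr1, and 4 of 9 heat shock members were lower, among them Hsp90aa1 (-1.11) and Hspe1 (-2.95). Lipid and lysosome genes were lower in 10 of 20, including Apoe (-3.16), Ctsd (-2.32) and Psap (-1.5), and Hmox1 was lower with 39 UMIs in young HU and 656 in young control (-2.19). Macrophage RNA was estimated at 3.08% of neutrophil UMIs in young HU and 5.07% in young control, and with it subtracted 12 of 25 inflammatory genes were called higher and 10 of 19 lipid and lysosome genes lower.

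Among mitochondrially encoded genes 11 of 12 were called higher in neutrophils of young HU, and they held 3.14% of UMIs in young HU and 0.694% in young control. In macrophages they held 3.16% in young HU and 2.25% in young control, with 5 of 13 called higher. The only fibroblast gene tested in neutrophils, Igfbp6, had 43 UMIs in 23 cells of young HU and 4 in 4 cells of young control. The fibroblast list was at 360.1 CPM in neutrophils of young HU, with 17 of 20 members at 0, and at 8.69 CPM in young control. With endothelial and fibroblast RNA subtracted, 166 neutrophil genes were called higher and 422 lower, against 169 and 411 without subtraction. Any further part of fibroblast RNA in other neutrophil values was not tested. The endothelial list was at 40.01 CPM in young HU and 41.3 CPM in young control.

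Group 2 innate lymphoid cells of young HU carried less RNA of their effector cytokines. Of 47 gated cells of young HU 14 had the smallest number of markers that the gate accepts, against 3 of 177 of young control. The median number of own markers was 4 in young HU and 7 in young control, so the 2 sides may differ in how well they fit the gate. In cluster 15, led by Il5, Calca, Gata3, Il13 and Csf2, lay 3 of 47 gated cells of young HU (6.38%) and 116 of 177 of young control (65.5%), while cluster 8 held 44 of 47 in young HU and 54 of 177 in young control. Since Il5, Il13, Areg and Calca are gate markers, the gate was redrawn without them after the data were seen, which left 39 cells in young HU (4.74% of gated leukocytes) and 166 in young control (12.99%). In these cells Il5 had 4 UMIs (40.4 CPM) in young HU and 1786 (2922 CPM) in young control, a log2 ratio of -6.18 (-8.06 to -4.82). Il13 had 13 UMIs in young HU and 367 in young control (-2.19), Calca, which encodes the peptide CGRP, 12 in young HU and 473 in young control (-2.68), and the growth factor Areg 54 in young HU and 619 in young control (-0.89). All 13 Il13 UMIs of young HU came from 1 cell. The chemokine receptor Cxcr6 (-3.12) and the interleukin-2 receptor chain Il2rb (-2.77) were lower as well. The interleukin-33 receptor Il1rl1, which still helped to gate these cells, was at -1.43. In old mice Il5 was at -1.28, with 424 CPM in old HU and 1026 CPM in old control, and Areg at 1.30.

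Under the full gate 3490 genes were tested in these cells, of which 205 (5.87%) were called higher in young HU and 323 (9.26%) lower. The split moved to 95 and 551 with TMM factors, which shifted the median of all genes by -0.31, and to 294 and 245 with mitochondrial, ribosomal and haemoglobin genes left out of the total, which shifted it by 0.16. Of 18 tested lymphocyte activation and effector genes 8 were lower and 1 higher, and 5 were lower without the top cell of each gene. Among them Gata3, the master factor of this lineage and a gate marker, had 924 CPM in young HU and 2048 CPM in young control (-1.15), the costimulator Icos was at -1.25, the adhesion receptor Cd44 at -1.57 and Tnfrsf9 at 0 UMIs in young HU and 140 in young control. The largest ratios rested on few UMIs. The cold-induced RNA binding protein Cirbp had 43 UMIs in young HU and 35 in young control (2.82, 2.15 to 3.51), and Arrb2 (2.67), Churc1 (2.27), Vars (2.19) and Stc2 (2.19) followed. Hnrnph1 had 1 UMI in young HU and 140 in young control (-4.60) and Rln3 1 in young HU and 95 in young control (-4.04).

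For Cd74, H2-Aa and Mt1, whose ratios were -4.39, -4.86 and -4.55, 1 young control cell per gene decided the value. That cell held 635 of 725 Cd74 UMIs, 158 of 167 H2-Aa UMIs and 197 of 270 Mt1 UMIs. With it left out the ratios were -1.38, -0.64 and -2.66, and H2-Aa was no longer called. Immediate early genes were higher in 10 of 26 members of their list, including Fos (2.10), Jun (2.12) and Junb (1.13), and Hsp90aa1 (-1.90) and Hsph1 (-1.25) were among 4 lower. Of 23 glucocorticoid response genes 6 were higher, among them Txnip (1.93), Fkbp5 (1.59) and Tsc22d3 (1.13), and 5 were lower.

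A few genes are set side by side over the 3 classes, whose values share both libraries, and they were chosen after their values were seen. Tsc22d3 was at 1.77 in macrophages, 1.75 in neutrophils and 1.13 in group 2 innate lymphoid cells, and Cirbp at 2.42, 1.69 and 2.82. Fos was at 1.77, 2.09 and 2.10, and Hsp90aa1 at -3.24, -1.11 and -1.90. Hmox1 was at -2.99 in macrophages and -2.19 in neutrophils, with 0 UMIs in young HU and 245 in young control in group 2 innate lymphoid cells. Gm42418, a gene model over ribosomal RNA whose counts are uncertain, was at -1.93, -1.70 and -2.84, and it held 6049 CPM in macrophages of young HU, 20668 CPM in young reload and 23053 CPM in young control. For these genes too the run and the treatment cannot be told apart.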

How the data were processed

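The deposited files held raw UMI counts per gene and barcode for each of 6 libraries, made by the authors with Cell Ranger 3.1.0 on mm10, and every deposited barcode held at least 500 UMIs. The submitters' processing notes also name Seurat, whose output was not used here. From the counts, barcodes were filtered, gated on 10 markers for each of 18 classes, and summed by class in scanpy 1.11.5 with pandas 2.3.3, scipy 1.17.1 and numpy 2.4.6 under Python 3.11.15 (2000 variable genes, 30 components, 15 neighbours, resolution 1 for the 22 clusters). TMM factors came from edgeR 4.0.16 in R 4.3.3. No count test was run, because each side has 1 library. Shares have exact Clopper-Pearson intervals, differences of shares Newcombe intervals, and ratios exact intervals conditional on the summed count. Members, markers and gene lists were chosen with earlier results of these data known. The genes named were the 12 largest called ratios each way in macrophages (at least 100 UMIs) and 5 each way in neutrophils and group 2 innate lymphoid cells (at least 40 UMIs), leaving out gate markers, spill, muscle fibre, mitochondrial, ribosomal, haemoglobin, receptor segment and Gm or Rik genes, plus in each list the most abundant and the most extreme members. Other list members named were chosen after their values were seen. Classes with fewer than 40 cells in either library have shares only. Doublets were kept, and removing the highest scrublet scores at 0.8% per 1000 barcodes was an alternative. Ratio calls were run on simulated counts with known folds. Those counts held only the counting error that the intervals assume, so differences between cells or runs were not tested. Promoter sequences are from RefSeq, on the same genome version as mm10. Alternatives changed the gate, filters, depth, scaling, UMI minimum and fold, left out stromal-marker cells or each gene's top cell, or subtracted stromal or macrophage RNA. The resident-type subset, the gate without cytokine genes, the subtraction of macrophage RNA and the top-cell alternative were added after seeing the data. Some list members are not reported here.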

Additional observations from a re-analysis of the deposited data

How the results depend on the processing

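No paired analysis was possible because each group was 1 pooled library. Over all alternatives, 261 recomputed values of the main results stayed within 1.5 times of a count or within the counting interval of a share, 21 counts were smaller, 5 larger and 10 shares moved further. For shares of gated leukocytes, HU minus control, thinning cells to 1000 UMIs gave 34.4 points for macrophages, -11.03 for neutrophils, -10.985 for group 2 innate lymphoid cells and -0.987 for T cells (interval -2.38 to 0.554), and 16.7 points for endothelial cells among kept barcodes. The gate of 4 markers gave -10.9 points for group 2 innate lymphoid cells and 17.6 for endothelial cells, a minimum of 500 genes gave -9.43 for neutrophils, and classes from clusters gave -3.85 for group 2 innate lymphoid cells and -6.65 for T cells. Counts of genes called higher and lower after thinning were 529 and 661 in macrophages, 111 and 219 in neutrophils, and 67 and 123 in group 2 innate lymphoid cells, with 1 interferon-stimulated gene called higher in macrophages. With a minimum of 100 UMIs they were 562 and 807 in macrophages, 64 and 164 in neutrophils, and 41 and 174 in group 2 innate lymphoid cells. A minimum of 1 UMI gave 267 higher in neutrophils and 463 in group 2 innate lymphoid cells, and a 1.5-fold limit 2279 higher and 1875 lower in macrophages. TMM factors gave 95 higher and 551 lower in group 2 innate lymphoid cells. With the cell with most UMIs of each gene left out, 112 genes were higher in neutrophils and 91 in group 2 innate lymphoid cells. Inflammatory genes called higher in neutrophils were 8 with a minimum of 100 UMIs and 8 without the top cell. Lymphocyte effector genes called lower in group 2 innate lymphoid cells were 5 under the gate of 4 markers, 5 after thinning and 5 without the top cell. Of the named macrophage genes 16 kept their call after thinning and 8 kept only their direction. Of the named genes of group 2 innate lymphoid cells 6 kept their call and 4 only their direction. In neutrophils 6 named genes kept their call, 2 kept only their direction, and Hspd1 and Lgals1 reversed to 0.64 and 0.28. Thinning and the higher minimum test fewer genes by construction, and thinning also leaves out cells with fewer than 1000 UMIs. Other causes were not tested. Counts are limited by the UMIs in each class: in young HU 47 group 2 innate lymphoid cells and 93 neutrophils held 116868 and 124982 UMIs, against 673863 and 460129 in young control.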
